A study of Mus musculus with 8 samples.

Results

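The genes described are Myc and 37 factors that build ribosomes, 38 in all, chosen by name for their function and found by symbol among the 13751 genes of the deposited normalised table. All 38 passed the filter on low counts, which left 13378 of 57010 genes for testing. The cells were naive CD4 T cells, sorted by flow cytometry from C57BL/6 mice (genotype wt; peripheral lymph nodes) and then stimulated for 20 h in culture with coated antibodies to CD3 and CD28, each at 4 µg/mL, in RPMI GlutaMAX with 10% FCS. The control group, which the labels call Ctrl., holds 4 such cultures. The FAC group holds 4 activated cultures that also received FAC, which the labels describe as iron supplementation. Each of 4 mice gave 1 control and 1 FAC culture, and a library is named here by its group and mouse number. Every library was activated, so the levels below are those of stimulated cells and hold no comparison with resting cells. The dose of FAC, the age of the mice and any vehicle in the control cultures are not given in the sources used here.

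Myc is a transcription factor that T cells switch on after antigen receptor stimulation and that drives cell growth. It pairs with Max and binds E-box sequences, the canonical form being CACGTG, at many genes of ribosome production. A ribosome begins in the nucleolus, where RNA polymerase I copies ribosomal DNA into a long precursor RNA. Small nucleolar RNAs (snoRNAs), held in protein complexes called snoRNPs, guide chemical marking of the precursor: box C/D complexes add methyl groups and box H/ACA complexes convert uridine to pseudouridine. Separate sets of assembly factors then cut and fold the RNA into the small and the large subunit, a programme that runs high in growing T cells.

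Promoter windows of 300 bases, from 250 bases before to 50 bases after each annotated start, were found in RefSeq (GRCm38.p6) for 30 of the 38 genes and not for Myc, Tcof1, Npm1, Fbl, Rrp12, Bop1, Rrs1 and Gnl2. The palindrome CACGTG stood in the window of 6 of these 30 genes (20.0%), against 8.09% of all 27025 genes with a window. These were Rrn3, Mybbp1a, Wdr43, Utp20, Pes1 and Nop2. The related E-box CACGCG was searched on both strands, and since its letters differ from the palindrome no match counts for both. It stood in 11 of the 30 genes (36.7%) and in 10.5% of all genes. The windows of the 30 genes were richer in G and C, with a median of 59.8% against 52.7% for all windows, and the shares were not matched for it. Among the 6 genes with CACGTG the median log2 change with FAC was -0.05, and it was -0.06 in the 24 without it. For CACGCG the order was the other way, with -0.07 in the 11 genes that hold it and -0.05 in the 19 that do not. A match is only a run of letters, not a bound site. The upstream stretches of Rrn3, which holds CACGTG at 2 places, of Nop2, which holds it once, and of Gar1 and Polr1c, a pair of genes that were lower with FAC, are shown 5′ to 3′, ending at the base before the start, with either E-box form in capitals. In GRCm38.p6 they lie at chr16:13780449-13780698 (plus strand), chr6:125131763-125131882 (plus strand), chr3:129831397-129831516 (minus strand) and chr17:46248046-46248245 (minus strand).
Rrn3: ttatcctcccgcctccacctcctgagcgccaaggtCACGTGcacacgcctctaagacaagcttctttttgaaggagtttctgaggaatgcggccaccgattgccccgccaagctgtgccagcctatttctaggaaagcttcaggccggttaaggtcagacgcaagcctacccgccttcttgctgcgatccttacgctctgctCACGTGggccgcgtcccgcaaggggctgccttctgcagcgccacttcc
Nop2: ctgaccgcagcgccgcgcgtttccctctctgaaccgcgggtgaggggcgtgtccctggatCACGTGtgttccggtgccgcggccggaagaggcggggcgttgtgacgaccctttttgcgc
Gar1: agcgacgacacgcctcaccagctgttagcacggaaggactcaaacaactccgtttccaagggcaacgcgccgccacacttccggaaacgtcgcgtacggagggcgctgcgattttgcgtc
Polr1c: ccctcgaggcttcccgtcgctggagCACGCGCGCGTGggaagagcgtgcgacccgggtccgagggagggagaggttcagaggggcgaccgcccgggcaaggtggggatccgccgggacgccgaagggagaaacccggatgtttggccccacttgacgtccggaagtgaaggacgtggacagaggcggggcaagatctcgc
In Rrn3 the motifs begin 215 and 48 bases before the start, and in Nop2 60 bases before it. Polr1c holds no CACGTG in the window, and its pair of CACGCG matches begin 175 and 169 bases upstream. The Gar1 window holds neither form.

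Library totals ran from 25410267 to 37350609 counts. Summed CD4 T cell markers, 11 genes that include Cd4, Cd3e and Trac, ran from 3305 to 3578 CPM (counts scaled to the library total, with edgeR's TMM factors) in controls and from 3420 to 3519 CPM with FAC. None of the 11 was called on the group alone, and with the mouse added to the fit as a replicate block Cd69 (edgeR adjusted p = 0.0164) and Cd28 (0.0410) were called higher. Summed markers of other cell types, 15 genes, ran from 16.1 to 21.1 CPM in controls and from 16.1 to 19.9 CPM with FAC. Of these, 13 stayed under 50 counts in every library, and Cd8b1 and Pecam1 did not. Cd8b1 was lower with FAC in 4 of 4 mice, at 9.51 ± 1.25 and 7.74 ± 1.19 CPM (SD, n = 4), and was not called (log2 change -0.30, edgeR adjusted p = 0.242). Its part in the results below was not tested. Ncr1 and Lyz2 had 0 counts in all 8, which allows up to 0.0816 to 0.119 CPM. Tfrc, the transferrin receptor gene, whose transcript is known to be less stable in iron-replete cells, had a log2 change of -0.79 with FAC (edgeR adjusted p = 3.97e-07). Of all genes tested, 438 were called at an edgeR adjusted p under 0.05, 147 lower and 291 higher.

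Myc and the ribosome biogenesis genes were strongly expressed, each with between 2501 and 175781 counts in every library. Per transcript length, in TPM, a unit that divides counts by transcript length and scales each library to the same total, 7 of the 38 were above 500 in control cultures. The highest was Npm1, which encodes the nucleolar chaperone nucleophosmin, at 5116, 4915, 4862 and 4487 TPM in control mice 1 to 4 and 4993, 4553, 4424 and 4402 TPM in FAC mice 1 to 4. The FAC cultures thus reached into the control range. Ncl, the nucleolin gene, followed at 1935 ± 107 TPM (SD, n = 4, also for the other values with ±), then the box C/D core genes Nop56 (986 ± 36.3), Nop58 (804 ± 55.5) and Fbl (708 ± 7.46). Myc stood sixth, at 547 ± 16.5 TPM in controls and 515 ± 24.4 TPM with FAC. At the other end, 6 genes were under 100 TPM, among them Rrn3 (71.1 ± 2.54) and Utp20 (73.6 ± 4.31). The lowest was Noc3l, at 54.5, 49.5, 51.7 and 50.8 TPM in controls and 55.2, 51.5, 52.8 and 50.02 TPM with FAC, so that its groups overlapped throughout. Neighbours in this order often lay within each other's spread: Nhp2 (423 ± 10.1) and Ddx21 (422 ± 18.1), for example, could not be ordered. Together the 38 genes took 2.19% to 2.33% of counts in control libraries and 2.14% to 2.26% in FAC libraries.

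**Figure D1:**
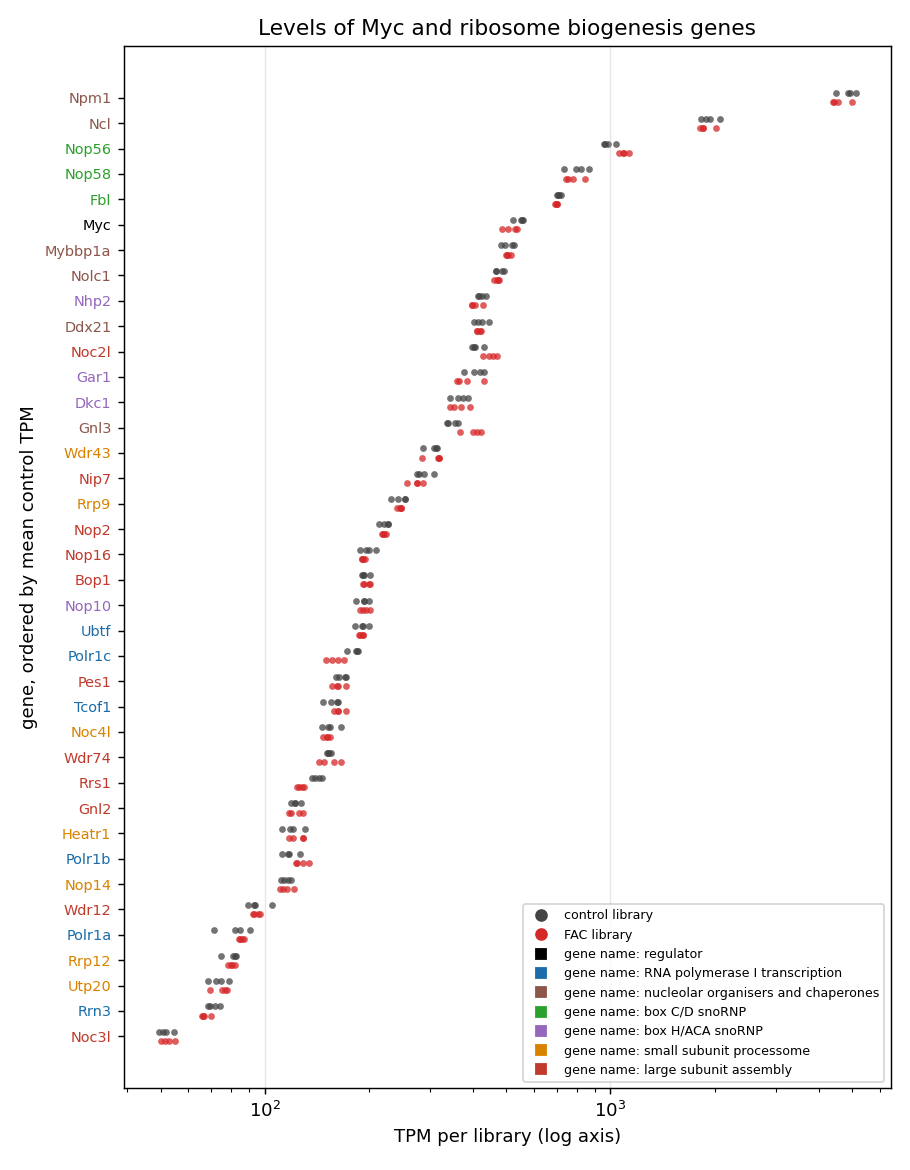
TPM (log axis) of each gene in the 4 control (grey) and 4 FAC (red) libraries, ordered by the control mean, with gene names coloured by role. Control means span from 51.6 TPM for Noc3l to 4845 TPM for Npm1, and control and FAC points lie close together for every gene.

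With FAC, 3 of the 38 genes fell and none was called higher by edgeR's test on the group alone. The 3 were Rrs1, a large subunit assembly factor, Gar1, a core protein of box H/ACA snoRNPs, and Polr1c, a subunit shared by RNA polymerases I and III. Their log2 changes were -0.19, -0.20 and -0.17, and no gene of the 38 differed by more than 15%. Over all tested genes 1.1% were called lower, 2.18% higher and 3.27% in either direction, and a count of 3 among 38 rests on few genes. In bulk RNA, fewer cells of a type and less RNA per cell cannot be told apart. As CPM, 31 of the 38 had a mean below the control mean, against 50.4% of all tested genes. Their median log2 change was -0.06, against -0.00 over all tested genes, and single changes ran from -0.20 to 0.12. On the TPM scale 23 of the 38 were lower, the median was -0.01 against 0.03 for all genes, and 8 genes turned to higher: Nop10, Rrp9, Wdr43, Heatr1, Bop1, Noc3l, Wdr74 and Mybbp1a.

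All 4 mice showed the lean to lower CPM. The number of genes lower in the FAC culture was 32, 27, 31 and 29 of 38 in mice 1 to 4. The median change was -0.06, -0.06, -0.06 and -0.04 on the log2 scale, against medians of all genes between -0.01 and 0.00. Of the 38 genes, 19 were lower in 4 of 4 mice and 2 (Gnl3 and Nop56) were higher in 4 of 4, where 15.4% and 14.7% of all genes did the same. In 10 genes every FAC library lay below every control library (4.89% of all genes), and in Nop56 every FAC library lay above (6.17% of all genes). With the mouse as a replicate block, 6 of the 38 were called, all lower, where 6.87% of all genes were called, 2.8% lower and 4.07% higher. The 3 added were Myc, Rrn3 and Npm1. DESeq2 called 5, the original 3 with Myc and Rrn3, where it called 5.55% of the 13378 genes that edgeR tested, 2.28% lower and 3.27% higher. Over all 25076 genes given to DESeq2, with no filter on low counts, these shares were 2.97%, 1.22% and 1.75%. With the block and a correction for GC content and length, 10 were called lower (the 6 called with the block, and Nolc1, Dkc1, Rrp9 and Nop2) and 2 higher (Gnl3 and Nop56), where 9.59% of all genes were called, 4.82% lower and 4.77% higher. None of the 3 genes called without the block passed limma on log2(TPM + 1), at limma adjusted p of 0.0722 for Rrs1, 0.0923 for Polr1c and 0.576 for Gar1, and on the log2 deposited signal Rrs1 alone passed (0.0238).

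**Figure D2:**
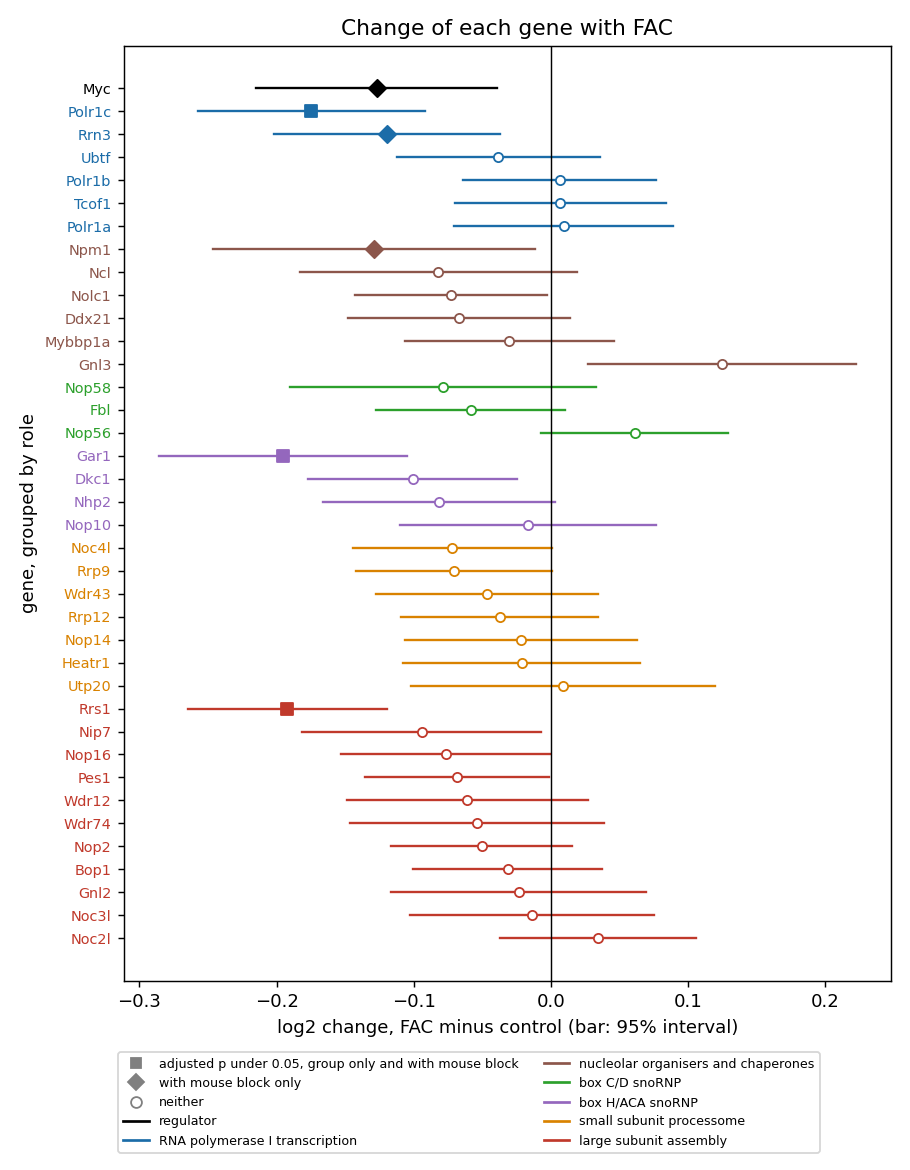
log2 change (FAC minus control) of each gene with its 95% interval from edgeR's fit, grouped and coloured by role. Filled squares mark Rrs1, Gar1 and Polr1c, called with and without the mouse block, filled diamonds mark Myc, Rrn3 and Npm1, called with the block only, and Gnl3 is the gene farthest to the right, at 0.12.

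**Figure D3:**
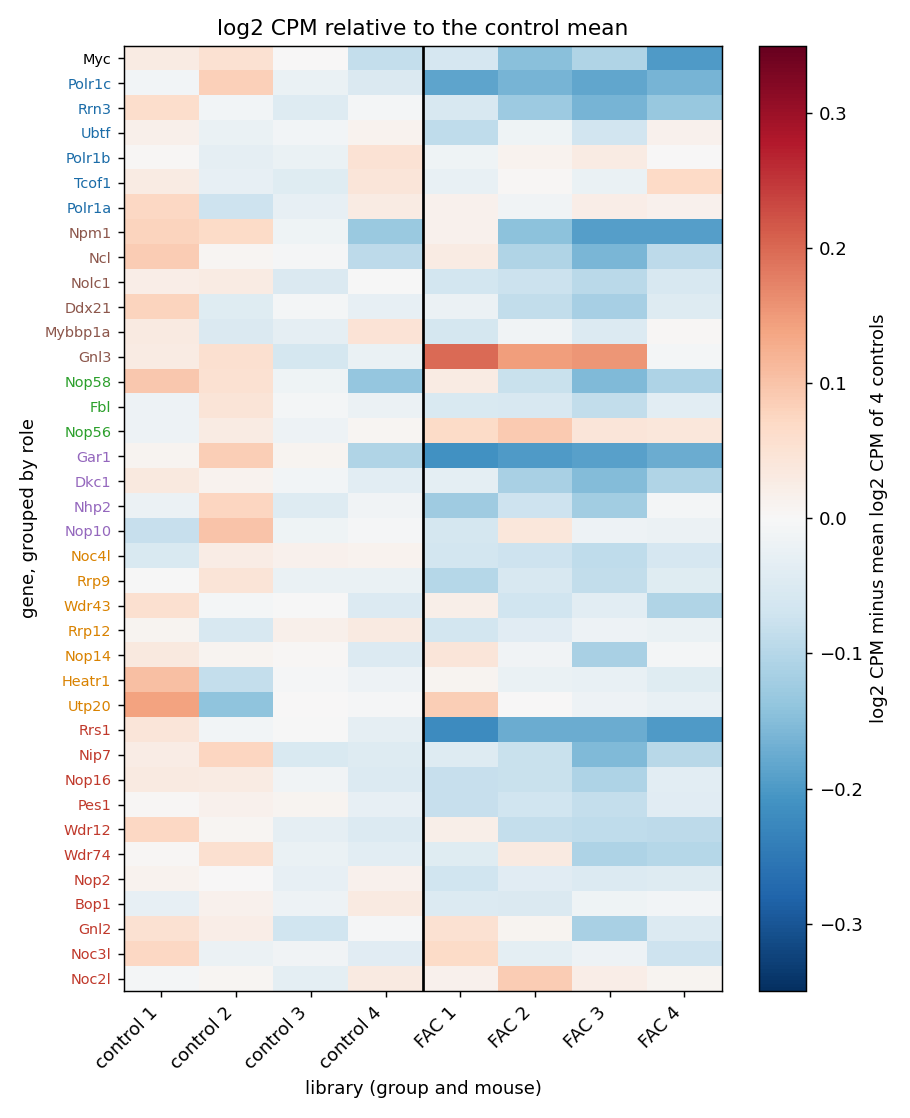
log2 CPM of each gene (rows, grouped by role) in each library (columns) relative to the mean of the 4 controls, blue below and red above. The rows of Polr1c, Gar1 and Rrs1 are blue in all 4 FAC columns, and that of Gnl3 is red in FAC 1, 2 and 3 and near 0 in FAC 4.

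Myc (ENSMUSG00000022346) was lower with FAC in each mouse but did not pass the test on the group alone. Its level was 789, 802, 774 and 729.9 CPM in control mice 1 to 4 and 743, 699, 719 and 674 CPM in FAC mice 1 to 4. The FAC culture of mouse 1 lay above the control culture of mouse 4, so the groups overlapped, while the cultures of a mouse never did. The log2 change was -0.13 (SE 0.04, 95% interval -0.22 to -0.04, edgeR adjusted p = 0.116). With the replicate block the edgeR adjusted p was 0.0270, and DESeq2 gave an adjusted p of 0.0260.

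The RNA polymerase I genes divided into those near no change and a lower pair. Polr1c (ENSMUSG00000067148) was at 129, 137, 127 and 125 CPM in controls and 114, 116, 114 and 116 CPM with FAC. The FAC values lay close together and below every control. Polr1c fell in 4 of 4 mice, with a log2 change of -0.17 (SE 0.04) and an edgeR adjusted p of 0.0273. Rrn3, which encodes the factor that brings polymerase I to the promoter, was at 182, 173, 169 and 174 CPM in controls and 168, 159.7, 156 and 159 CPM with FAC. Each FAC value was below all controls, but the group-only fit did not call it, while DESeq2 and the fit with the block did (log2 change -0.12, edgeR adjusted p = 0.114, and 0.0349 with the replicate block, DESeq2 adjusted p = 0.0449). The catalytic subunit gene Polr1a (277 ± 12.3 and 278 ± 3.06 CPM, control and FAC), the second large subunit gene Polr1b (272 ± 6.96 and 273 ± 3.46 CPM) and Tcof1, the treacle gene (468 ± 13.6 and 471 ± 14.7 CPM), each had a log2 change of 0.01. Ubtf, the gene of the ribosomal DNA-binding factor UBF, was at 403 ± 5.30 and 393 ± 13.1 CPM (-0.04). For these 4 the 95% intervals lay between -0.11 and 0.09, so changes beyond that size fell outside them.

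Among the nucleolar organisers, Npm1 was at 3937, 3909, 3691 and 3413 CPM in controls and 3767, 3377, 3262 and 3266 CPM with FAC. FAC 1 lay inside the control range and the other 3 FAC libraries below it. The log2 change was -0.13 (SE 0.05, edgeR adjusted p = 0.229, and 0.0367 with the replicate block), lower in 4 of 4 mice. Npm1 counts were not whole numbers in any library, which RSEM gives where it divides reads between genes, so its level is uncertain. Gnl3, the nucleostemin gene, was at 330.4, 337, 311 and 319 CPM in controls and 372, 359, 361 and 323 CPM with FAC. FAC 4 alone lay inside the control range, and the upward difference was the largest of the 38 (log2 change 0.12, SE 0.05, edgeR adjusted p = 0.162, and 0.0560 with the replicate block, or 0.00538 with the correction as well). Gnl3 overlaps Pbrm1 on the other strand. Without FAC 4, Gnl3 was called higher (log2 change 0.16, edgeR adjusted p = 0.0317). Nolc1, which encodes a snoRNP chaperone of the nucleolus, was at 779.8 ± 19.5 and 742 ± 8.65 CPM, with no overlap (-0.07, edgeR adjusted p = 0.252, and 0.0262 with the replicate block and the correction). Ncl (4763 ± 245 and 4500.0 ± 251 CPM), the RNA helicase gene Ddx21 (1324 ± 50.2 and 1264 ± 37.3 CPM) and Mybbp1a, the gene of a Myb-binding nucleolar protein (1393 ± 46.5 and 1364 ± 29.4 CPM), had log2 changes of -0.08, -0.07 and -0.03 and did not pass.

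**Figure D4:**
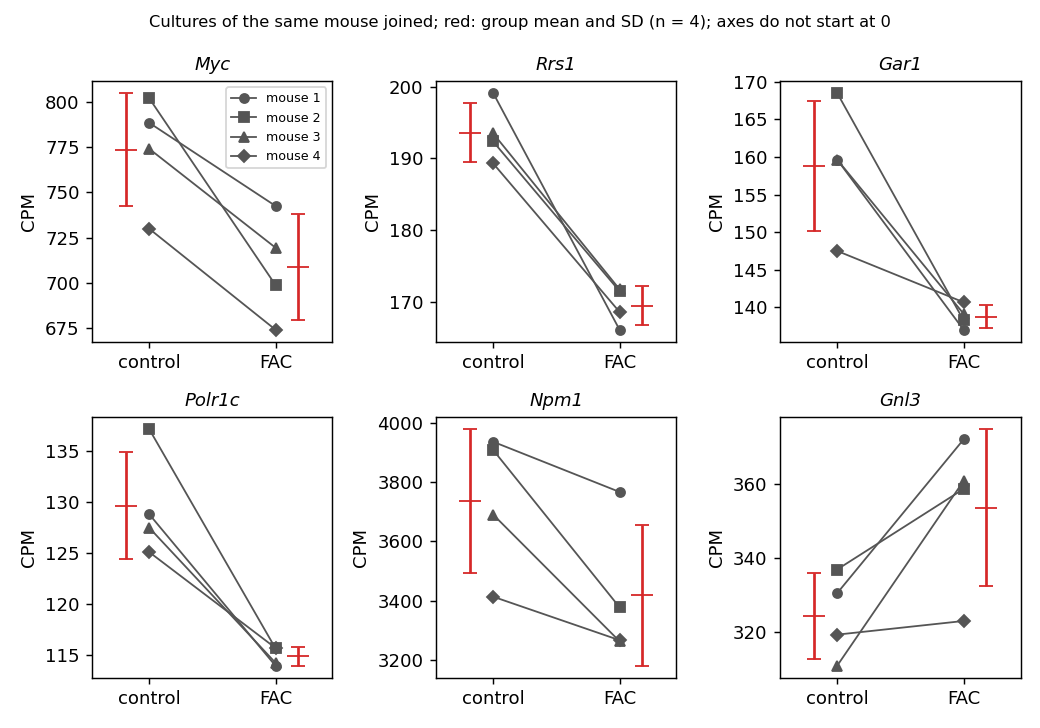
CPM of Myc, Rrs1, Gar1, Polr1c, Npm1 and Gnl3 in the control and FAC culture of each mouse (joined points), with group means and SD in red; the vertical axes do not start at 0. Every line falls except in Gnl3, where every line rises, and the lines of mouse 4 are the flattest for Gar1, Polr1c and Gnl3.

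Of the 7 snoRNP core genes 1 fell on the group-only test, where 1.1% of all genes were called lower, and 6 did not pass. Gar1 (ENSMUSG00000028010) was at 159.7, 169, 159.7 and 147 CPM in controls and 137, 138, 139 and 141 CPM with FAC. The FAC values were close together and below all controls, and control 4 was the nearest. Gar1 fell in 4 of 4 mice, with a log2 change of -0.20 (SE 0.04) and an edgeR adjusted p of 0.0239. In TPM the change of Gar1 was smaller, -0.08 (limma adjusted p = 0.576), and its estimated effective length also differed between libraries, from 450.4 bases in FAC 1 to 552 bases in control 3. Its partners in the box H/ACA complex were Dkc1, the pseudouridine synthase gene (443 ± 9.36 and 413 ± 14.1 CPM, log2 change -0.10), Nhp2 (251 ± 9.19 and 238 ± 9.21 CPM, -0.08) and Nop10 (133 ± 6.91 and 131 ± 3.73 CPM, -0.02). None of these 3 passed on the group alone, at edgeR adjusted p of 0.145, 0.290 and 0.879, and Dkc1 passed with the replicate block and the correction (0.0496). In the box C/D complex, the methyltransferase gene Fbl was at 525 ± 11.6 and 504 ± 7.09 CPM, with no overlap (-0.06, edgeR adjusted p = 0.357). Nop58 was at 623 ± 42.6 and 590.2 ± 32.3 CPM (-0.08, edgeR adjusted p = 0.454). Its paralogue Nop56 went the other way, at 829, 857, 829 and 843 CPM in controls and 880.1, 895, 865 and 863 CPM with FAC. The Nop56 groups did not overlap, yet the change was small and did not pass (0.06, SE 0.03, edgeR adjusted p = 0.328, and 0.0389 with the replicate block and the correction). Nop56 overlaps Idh3b on the other strand and has counts that are not whole, so its level is less certain. The difference between Nop56 and Nop58 was not tested.

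None of the 7 small subunit processome genes was called on the group alone or with the replicate block, and the block with the GC and length correction called Rrp9 lower (edgeR adjusted p = 0.0485). The intervals of their changes lay between -0.14 and 0.12 on the log2 scale. Rrp9, a protein of the U3 snoRNP (231 ± 5.25 and 220.2 ± 3.97 CPM), and Noc4l (183 ± 4.62 and 174 ± 1.59 CPM) had no overlap between groups, each at -0.07, with edgeR adjusted p of 0.276 and 0.277. Noc4l is the binding partner of Nop14, which itself was at 197 ± 4.67 and 194 ± 8.65 CPM (-0.02). Wdr43 and Heatr1, which act on the earliest precursor and are needed for its transcription, were at 403 ± 11.97 and 390 ± 14.7 CPM (-0.05) and at 489 ± 26.7 and 482 ± 7.31 CPM (-0.02). Rrp12, an export factor, was at 242 ± 6.47 and 236 ± 3.41 CPM (-0.04). The groups of Nop14, Wdr43, Heatr1 and Rrp12 overlapped, as did those of Utp20, a large scaffold protein of the processome (0.01). Relative to its mean, Utp20 had the widest spread of the 38 among controls (coefficient of variation 7.96%), from 344 CPM in control 2 to 417 CPM in control 1.

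Of the 11 large subunit genes 10 were lower in mean CPM and 1 was called lower, where 50.4% and 1.1% of all genes were. On the TPM scale Bop1, Noc3l and Wdr74 turned to higher, and the median of the 11 was -0.01, against 0.03 for all genes. Rrs1 (ENSMUSG00000061024), which helps load the 5S ribosomal particle, was at 199, 192, 193 and 189 CPM in controls and 166, 171, 172 and 169 CPM with FAC. The highest FAC value, 172 CPM, lay well below the lowest control value, 189 CPM. Rrs1 fell in 4 of 4 mice, with a log2 change of -0.19 (SE 0.03) and an edgeR adjusted p of 0.00841. This was the only call of the 38 that was held in each of 8 fits that left out a library, with an edgeR adjusted p of up to 0.0368 (without control 1). Gar1 and Polr1c each lost their call when control 1, control 2, control 3, FAC 2 or FAC 3 was left out. The highest values were 0.0841 for Gar1 (without FAC 2) and 0.0992 for Polr1c (without FAC 3), both edgeR adjusted p. The PeBoW complex, needed to form the long ribosomal RNAs of the large subunit, is encoded by Pes1 (297 ± 4.14 and 283 ± 3.81 CPM, -0.07), Bop1 (286 ± 5.57 and 279.8 ± 4.14 CPM, -0.03) and Wdr12 (159 ± 5.90 and 153 ± 5.92 CPM, -0.06). Pes1 had no overlap between groups, and none of the 3 passed (edgeR adjusted p = 0.263, 0.654 and 0.463). Nop2, the gene of a ribosomal RNA cytosine methyltransferase, had no overlap either (383 ± 5.23 and 369 ± 3.21 CPM, -0.05, edgeR adjusted p = 0.407, and 0.0458 with the replicate block and the correction). Nip7, which binds precursor RNA, was at 179.7 ± 7.60 and 168 ± 5.34 CPM (-0.09), and Nop16 was at 164 ± 4.25 and 155 ± 3.14 CPM (-0.08). Noc2l and Noc3l, which bind each other on the large subunit precursor, were at 676 ± 12.7 and 692 ± 17.6 CPM (0.03) and at 142 ± 5.06 and 141 ± 5.76 CPM (-0.01). The GTPase gene Gnl2 (-0.02) and Wdr74 (-0.05) were at 181 ± 6.50 and 179 ± 8.96 CPM and at 105 ± 2.96 and 101 ± 4.58 CPM. None of these 6 passed.

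Other genes of the pathway leaned the same way by as small an amount. Of 125 further ribosome biogenesis genes tested, in 5 lists, 106 were lower in mean CPM, where 50.4% of all tested genes were. Among the 125, 5 fell and 1 rose, where 1.1% of all genes were called lower and 2.18% higher. The median log2 change was -0.06. With the replicate block 13 fell and 1 rose, where 2.8% of all genes were called lower and 4.07% higher. On the TPM scale the median of the 125 was -0.02, against 0.03 for all genes. The TPM medians of the polymerase I and exosome lists were each 0.01. Among 9 snoRNP assembly factors, Snu13 (-0.15) and Znhit6 (-0.20) fell, among 42 small subunit factors Ngdn (-0.21) and Pno1 (-0.18), and among 46 large subunit factors Zfp622 (-0.19), at edgeR adjusted p of 0.0434, 0.0499, 0.0294, 0.0339 and 0.0412. Each was lower in 4 of 4 mice. Leaving out control 1, control 2, FAC 2 or FAC 3 ended each of these 5 calls, and the highest edgeR adjusted p was 0.156, for Snu13 without FAC 3. Leaving out control 3 also ended those of Snu13 and Znhit6, control 4 those of Snu13, Ngdn and Zfp622, FAC 1 that of Zfp622, and FAC 4 those of Snu13, Znhit6 and Pno1. Taf1d, a subunit of the polymerase I promoter factor SL1, rose in 4 of 4 mice, from a mean of 189 ± 7.78 CPM to 239.8 ± 24.8 CPM (log2 change 0.34, SE 0.06, and edgeR adjusted p = 0.0113), the only call on the group alone among 15 further polymerase I genes. With the replicate block Cd3eap was also called, lower (edgeR adjusted p = 0.0301). The Taf1d call ended without FAC 3 (edgeR adjusted p = 0.0547). None of 13 RNA exosome genes was called by edgeR on the group alone, and 5 had an unadjusted p below 0.05, all 5 lower. Over all 13378 tested genes, 1089 were lower and 1374 higher with an unadjusted p below 0.05. With the replicate block edgeR called Exosc4 lower (edgeR adjusted p = 0.0278), where 2.8% of all genes were called lower. DESeq2 called 2 lower, where it called 2.28% of the 13378 genes lower.

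Myc targets outside ribosome production showed the same lean. Of 36, 33 were lower in mean CPM, where 50.4% of all tested genes were, and the median log2 change was -0.08. On the TPM scale the median was -0.04, against 0.03 for all genes. Over all genes the group-only fit called 1.1% lower and 2.18% higher. Of the 36 it called 1, the glutamine transporter gene Slc1a5, and Slc1a5 was higher (396 ± 20.4 and 461 ± 24.9 CPM, 0.22, SE 0.05, edgeR adjusted p = 0.0234, higher in 4 of 4 mice). The Slc1a5 call was lost when control 1, control 2, control 3, FAC 2 or FAC 3 was left out, with a highest edgeR adjusted p of 0.106 (without FAC 2). With the replicate block 5 were called lower, Ccnd2, Ldha, Hnrnpa1, Eif4e and C1qbp, and Slc1a5 higher. In that fit 2.8% of all genes were called lower and 4.07% higher. Of the 12 tested partners and antagonists of Myc, which include Max and the Mxd repressors, none was called by edgeR on the group alone or by DESeq2. Of these 12, 3 had an unadjusted p below 0.05 in the group-only edgeR fit, all 3 higher, and the median change was 0.04. Over all 13378 tested genes, 1374 were higher and 1089 lower with an unadjusted p below 0.05 in that fit. With the replicate block edgeR called Mlxip higher (edgeR adjusted p = 0.0298).

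A list of mostly non-coding RNAs that host snoRNAs in their introns leaned to higher CPM. Of 14 genes tested (13 symbols, Snhg4 having 2 gene identifiers), 12 were higher in mean CPM, where 6639 of all 13378 genes were. Among the 14, 4 rose and 0 fell, where 2.18% of all genes were called higher and 1.1% lower. The median log2 change was 0.15, and on the TPM scale it was 0.07, against 0.03 for all genes. Snhg16 went from 32.7 ± 2.85 to 47.9 ± 4.48 CPM (log2 change 0.55, SE 0.08, and edgeR adjusted p = 0.00121). Snhg17 went from 76.9 ± 7.94 to 109 ± 9.97 CPM (log2 change 0.51, SE 0.07, and edgeR adjusted p = 0.00220). Both rose, each in 4 of 4 mice and in all 8 fits that left out a library. Snhg15 (0.27) and Snhg4 (0.41, ENSMUSG00000117869) rose as well, at edgeR adjusted p of 0.0284 and 0.0470, but both calls were lost when control 1, control 3, FAC 2 or FAC 3 was left out. The highest edgeR adjusted p was 0.127 for Snhg15 (without FAC 2) and 0.172 for Snhg4 (without FAC 3), and Snhg4 also lost its call without control 2, control 4 or FAC 1. The other gene identifier of Snhg4 was not called by edgeR on the group alone. Limma on log2(TPM + 1) called none of the 11 genes called in these further lists, and on the log2 deposited signal it called Slc1a5 alone. Of the 38 genes, 6 hold annotated snoRNA genes within their bounds on the same strand: Ncl, Gnl3, Nop56, Nop58, Dkc1 and Wdr43. Gnl3 and Nop56, the 2 largest changes upward of the 38, are among these 6, and the other 4 were at -0.05 to -0.10. The median of the 6 was -0.06, that of the other 32 genes -0.06, and that of all 194 tested protein-coding genes with a snoRNA gene inside -0.04.

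**Figure D5:**
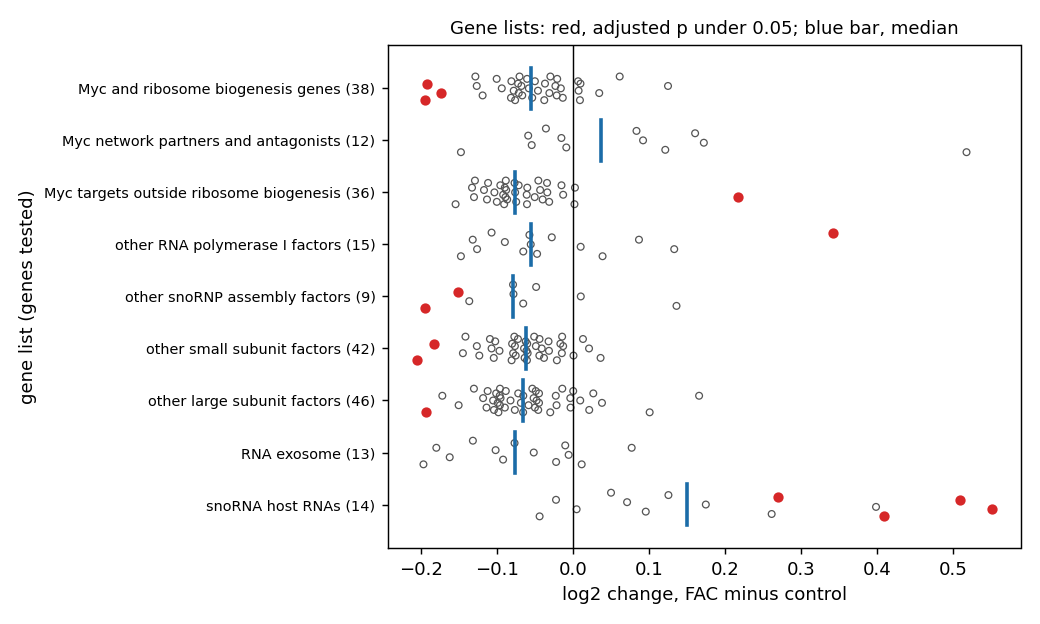
log2 change of each gene of the 38 and of 8 further lists (open circles; red, edgeR adjusted p under 0.05), with list medians as blue bars. The biogenesis lists and the Myc targets centre between -0.08 and -0.06, and the snoRNA host RNAs centre at 0.15.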

How the data were processed

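Each of the 8 libraries has a table of RSEM gene estimates, per the file headers, and was made from 250 ng of total RNA with a stranded mRNA kit. Expected counts in these deposited files are estimated read counts, not scaled between libraries. TPM values in the same deposited files are scaled by transcript length and to a fixed total per library. One more deposited table holds a normalised signal for 13751 genes, which the authors scaled by factors not shared by all genes of a library. The submitters' processing notes name STAR 2.7.6a, RSEM 1.3.1, R 3.6.3, DESeq2 1.26.0 and GRCm39, with no role. The annotation release and the strand setting of counting are not given in the sources used here; 11 of the 38 genes overlap a tested gene on the other strand, and 6 (Npm1, Fbl, Nop56, Pes1, Wdr12, Noc2l) have counts that are not whole in all 8 libraries, to a tolerance of 0.005.

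Expected counts were rounded and tested with edgeR 4.0.16 (R 4.3.3): quasi-likelihood test, TMM factors, low counts removed (minimum count 10, minimum total 15), group as the only term, Benjamini-Hochberg adjustment over 13378 genes, calls under 0.05. SE is the change over the square root of F, and intervals (95%) follow from it. Alternatives used DESeq2 1.42.0, limma 3.58.1 on log2(TPM + 1), log2(TPM + 0.1) and log2(signal + 1), other scaling and filters, the mouse block, and each library left out. Mouse numbers come from the labels and mark cultures of the same animal, which is the basis for the pairing. Deviations of the cultures of a mouse correlated across genes at r = 0.146, 0.0213, 0.0724 and 0.146 (mice 1 to 4), and the highest r between cultures of different mice was 0.0275. Replicates differed by more than sampling noise (chi-square over its degrees of freedom 5.8 to 20 between pairs). Reads carry no molecular identifiers, and 1 count equals 0.0272 to 0.0396 CPM, so limits cover counting error only.

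The 38 genes and the further lists (of 222 symbols, 215 were found) were chosen with earlier results of these data known. The genes named are the 38, with values per library for Myc, for those called with or without the block, for the highest and lowest level and for the largest rise and fall; Nop56 was added after its values were seen. From each further list the called genes are named, at most 4 a direction. Genes called only with the block were added, after their values were seen, for some lists. These were the CD4 marker, polymerase I, exosome, Myc target and Myc partner lists. In the small subunit, large subunit and snoRNA host lists, genes called only with the block are not named. Symbols came from the deposited table and GENCODE M21, which also gave snoRNA positions.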

Additional observations from a re-analysis of the deposited data

Results flagged for a closer look

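In 2 of 100 groups of 4 libraries checked, 1 library stood far from the other 3 (a gap to the nearest above Dixon's 95% critical value), where chance gives about 1 in 20. Wdr12 was at 161 CPM in FAC 1, against 149 to 150.0 CPM in the other FAC libraries, so that this culture lay inside the control range. Noc2l was at 719 CPM in FAC 2, against 681 to 687 CPM in the others.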

How the results depend on the processing

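Scaling by DESeq2's size factors kept all 3 calls of the 38 genes, as did testing without a filter on low counts. The number called was 3 by edgeR on the group alone, 5 by DESeq2, 6 with the replicate block, 12 (10 lower, 2 higher, among them Gnl3 and Nop56) with that block plus a correction for GC and length, 1 by limma on the log2 deposited signal and 0 by limma on log2(TPM + 1), on log2(TPM + 0.1) and on log2(TPM + 1) with no filter. It was 1 to 4 when 1 library was left out. In the 3 fits on TPM, 6, 6 and 7 of the 38 had an unadjusted p below 0.05. The share of all genes below that p in these fits is not given here, so the counts have no background beside them. The number of genes called, 438 by edgeR on the group alone, became 736 with no filter on low counts, 744 by DESeq2, 919 with the replicate block, 1283 with the block and the correction, 119, 119 and 47 in the same 3 limma fits on TPM, 156 on the signal, and 147 to 549 when 1 library was left out. In the further lists together (context lists) the 11 called became 19, 26, 40, 0, 0, 0 and 1, in the order DESeq2, block, block with correction, the 3 fits on TPM and the signal, and 2 to 16 when 1 library was left out. The Myc log2 change was -0.13 by DESeq2, -0.13 with the replicate block and -0.15 with the block and the correction, each then called, and -0.15 to -0.10 when 1 library was left out, with 0 calls. Higher calls made up 66.4% of genes called, 78.2% by limma on log2(TPM + 1), 55.7% and 54.4% without FAC 1 and FAC 3, and 49.7% with block and correction. Called or not, the direction differed from the group-only fit in 8 of the 38 on TPM, 5 with block and correction, 4 with no filter, 1 on the signal and up to 5 when 1 library was left out. No called gene of the 38 turned direction under an alternative run. Why the counts differ between settings was not tested. The coefficient of variation among controls, which includes counting error, was 1.31% to 7.96% over the 38 genes. The part of counting error in it was not measured.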

Other observations

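The estimated effective length of some of the 38 genes differed between groups, which moves TPM but not counts. For Noc2l, a nucleolar gene whose product also binds histones, it averaged 2290 bases in controls and 2187 bases with FAC, and the log2 change was 0.14 in TPM against 0.03 in counts. For Nop56 it averaged 1180 and 1139 bases, and the change was 0.15 in TPM against 0.06 in counts. In both genes neither change passed, by edgeR on the group alone for counts or by limma on log2(TPM + 1). With the replicate block and the correction the count change of Nop56 passed (edgeR adjusted p = 0.0389).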
